A study of Homo sapiens with 29 samples.

Results

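Described here are the genes tested between COLO320DM tumors that received Helicon4 at 100 mpk and tumors that received Helicon4neg at 30 mpk, both labelled 48 hr (mpk is the dose unit as labelled). All 13373 genes that passed a filter on low values, of 13492 in the table, were taken, in 5 libraries with Helicon4 at 100 mpk and 8 with Helicon4neg, which are 13 of the 29 libraries in the series. Compound and dose differ together between these groups, so the 6 libraries with Helicon4 at 30 mpk are given beside them for the compound at a matched dose, and 10 vehicle libraries for the level without peptide. COLO320DM is an established human colorectal adenocarcinoma line with amplified MYC, grown here as a xenograft in mice. Randomization and dosing took place at a mean tumor volume of about 300 mm3, per the series' design text. The series title describes a helicon peptide aimed at β-catenin and TCF, and the labels give no structure, target or sequence for Helicon4neg. Replicate numbers are the only sign that libraries came from separate animals, so p values measure the spread between these libraries.

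In canonical Wnt signalling, a ligand binds a Frizzled and LRP receptor pair, which stops the destruction complex of APC, AXIN and GSK3 from marking β-catenin for degradation. β-catenin then enters the nucleus and, bound to TCF and LEF factors, switches on target genes. Many of these targets encode inhibitors of the pathway itself, such as AXIN2, NKD1, NOTUM and the DKK proteins, and in the intestine the pathway maintains the crypt stem cells. Most colorectal cancers carry mutations that keep it switched on.

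Depth was 34.3 M to 61.6 M reads with Helicon4 at 100 mpk and 27 M to 59.4 M with Helicon4neg. Helicon4neg library 2 stood apart from the other 7 of its group before any comparison. Relative to the mean of all 29 libraries, its log2 values fell with gene length (slope -0.321, against -0.0452 to 0.0871 in the others). Ribosomal protein genes took 20.5% of its reads. Titles carry codes whose meaning is not stated. SH7080 and SH7081 held the 8 Helicon4neg libraries, and SH7083 and SH7084 held 4 and 1 of those with Helicon4 at 100 mpk, so code and group cannot be told apart from these 13 libraries alone. A fit with the code as a block connects the 2 groups only through Helicon4 30 mpk libraries 1 and 6, and its standard errors were 2.74 times as large at the median. Below, "with the code block" refers to that fit.

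Differences were widespread. Of 13373 genes, 2280 (17%) were higher and 2369 (17.7%) lower with Helicon4 at 100 mpk than with Helicon4neg. In all 34.8% were called (limma on log2(CPM + 1), adjusted p under 0.05). CPM is the authors' scaled level, in reads per 1e6 reads of a scaled library size, so that columns summed to 0.92 M to 1.26 M. Of the called genes, 678 and 917 differed by at least 1.5-fold, and 168 and 241 by at least 2-fold. Without Helicon4neg library 2 the counts were 2517 and 2701. When all columns were rescaled to the same sum, 2971 genes were higher and 1709 lower, so that 63.5% of calls were upward instead of 49%. In the fit with the code block 110 genes (0.823%) were higher and 79 (0.591%) lower. All 189 of them were also called without it in the same direction, and 95.7% of the 4649 calls kept their sign.

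Set beside this, 15.1% of genes were called for Helicon4 at 30 mpk against Helicon4neg (7.78% higher, 7.31% lower), and 3.6% for 100 against 30 mpk of Helicon4 (1.74% higher, 1.86% lower). Helicon4neg itself differed from vehicle in 4.84% of genes (2.21% higher, 2.62% lower). These comparisons share libraries, so their counts are not independent. Title codes differ between their groups too. Of the Helicon4 30 mpk libraries 4 carried SH7082 and 1 each SH7081 and SH7083. Of the vehicle libraries 7 carried SH7079, 1 SH7078 and 2 SH7080. Values for these comparisons, here and below, are from the fit without the code block. Both directions are seen in the plot of level against difference, where the lower genes reach further from 0 than the higher ones.

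**Figure D1:**
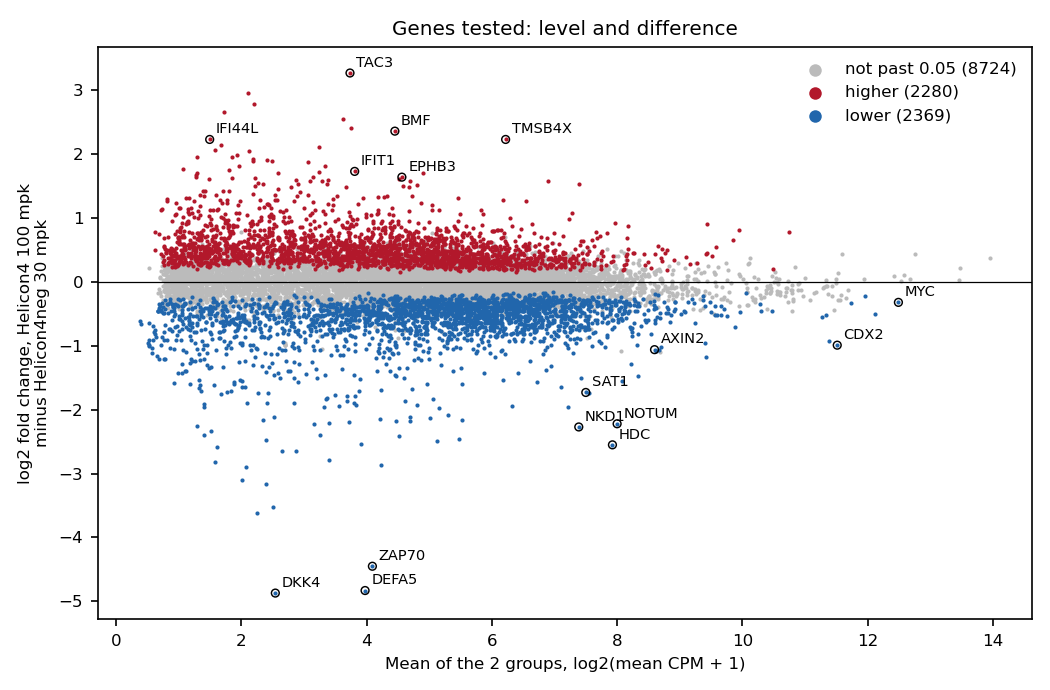
Difference between the groups for each gene tested (vertical axis, log2 fold change, Helicon4 at 100 mpk minus Helicon4neg at 30 mpk) against its level (horizontal axis, mean of the 2 groups' log2(mean CPM + 1)). Red points are the 2280 genes called higher, blue points the 2369 called lower and grey points the rest, and DKK4 at -4.87 and TAC3 at 3.27 are among the most distant named genes.

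Wnt feedback and target genes were mostly lower with Helicon4 at 100 mpk, and several of them had no overlap between the groups. How many of all genes lacked overlap was not counted. DKK4, a secreted inhibitor that binds the LRP co-receptors, had 0, 0.0567, 0.0801, 0.0963 and 0.0334 CPM in the 5 libraries with Helicon4 at 100 mpk, and 13 to 43.1 CPM (median 31.9) in the 8 with Helicon4neg. The groups were far from overlapping, and the level with Helicon4 rested on 13 reads in all against 12344. By summed reads DKK4 was 604-fold lower (95% limits 353 to 1134, counting error only), and its log2 fold change was -4.87 ± 0.24 (SE, adjusted p = 1.55e-15). At 30 mpk the 6 libraries had 0.0937 ± 0.059 CPM of DKK4 (mean ± SD). A difference between the doses was not found by limma (log2 fold change -0.05, adjusted p = 0.948).

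NKD1, an intracellular antagonist that acts on Dishevelled (GRCh38 chr16:50548330-50649249, plus strand), read 56.9, 70.9, 66.1, 79 and 105 CPM with Helicon4 at 100 mpk. In the Helicon4neg libraries it ran from 281 to 492 CPM with a median of 362. Every Helicon4 library lay below every Helicon4neg library (log2 fold change -2.27 ± 0.13, adjusted p = 2.33e-14). NOTUM, a secreted enzyme that removes the lipid from Wnt ligands (chr17:81952507-81961840, minus strand), read 123, 101, 96.1, 108 and 164 CPM against 405 to 680 CPM (median 556), again without overlap (-2.22 ± 0.15, adjusted p = 1.46e-12). Both genes were lower at 100 than at 30 mpk, NKD1 by a log2 fold change of -0.62 (adjusted p = 0.00766) and NOTUM by -0.61 (adjusted p = 0.0283). NOTUM was also higher with Helicon4neg than in vehicle, by 0.52 (551 ± 92 against 387 ± 73.3 CPM, adjusted p = 0.0145).

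SP5, a zinc finger transcription factor encoded by a Wnt target, read 6.83, 4.11, 4.24, 5.34 and 5.68 CPM against 27.4 to 44.7 CPM (median 35.4). It was lower in all 5 libraries, by -2.54 ± 0.17 on the log2 scale (adjusted p = 1.16e-12). AXIN2, a scaffold of the destruction complex, read 242, 309, 253, 221 and 314 CPM against 425 to 646 CPM (median 572). The groups did not overlap (-1.06 ± 0.10, adjusted p = 9.65e-10), and AXIN2 was lower at 100 than at 30 mpk (-0.50, adjusted p = 0.00469). DKK4, NKD1, NOTUM and SP5 kept their calls with the code block, and AXIN2 kept its size but not its call (-1.01, adjusted p = 0.077).

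Promoter sequence was available here for 14 of 25 measured Wnt target genes, from RefSeq (GRCh38.p14), as windows of 300 bases from 250 before to 50 after the start. The TCF motif was searched as CTTTGAT or CTTTGAA on both strands, and was present in 2 of the 14 windows, those of SP5 and DKK1, in 6.86% of all 35116 windows and in 4.15% of the 10123 windows of tested genes. The stretches that hold it are shown because both genes were lower in every Helicon4 library. Capitals mark the motif or, as TTCAAAG, its reverse complement. The SP5 stretch is chr2:170715165-170715279 (plus strand), with 3 matches, and the DKK1 stretch is chr10:52314162-52314212 (plus strand), with 1 match.
SP5: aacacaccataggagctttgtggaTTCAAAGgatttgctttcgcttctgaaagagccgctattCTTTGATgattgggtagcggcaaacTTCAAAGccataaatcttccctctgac
DKK1: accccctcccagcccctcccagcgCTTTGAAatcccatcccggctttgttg
A match describes these letters and not binding, and the other 12 windows have no match in this short stretch.

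Of the 13 core Wnt genes named whether changed or not, 11 were lower and none higher, against 17.7% and 17% of all genes. Their median log2 fold change was -0.80 against 0.006 over all genes tested. ASCL2, a stem cell transcription factor, read 25.5 to 30.9 CPM against 35.7 to 138 CPM (-0.84, adjusted p = 0.00285). Its 138 CPM in Helicon4neg library 2 stood clear of the other 7, at 35.7 to 59.6 CPM. ZNRF3 and RNF43, ubiquitin ligases that remove Frizzled receptors, were lower by -0.80 (adjusted p = 8.98e-05) and -0.31 (0.0248), with overlapping groups. TCF7 (-0.49, adjusted p = 0.00445) was lower too. MYC read 6433, 4603, 4845, 4702 and 5222 CPM against 4845 to 8037 CPM (median 6432), a difference of -0.32 (95% limits -0.56 to -0.07, adjusted p = 0.0414) with overlap. The Helicon4neg level of MYC, 6439 ± 935 CPM, stood above the 5244 ± 845 CPM of vehicle, a difference that did not pass (0.30, adjusted p = 0.0782), and the level with Helicon4 at 100 mpk was 5161 ± 749 CPM. LEF1 (0.02, 95% limits -0.16 to 0.21, adjusted p = 0.86) and LGR5 (-0.35, limits -0.71 to 0.01, adjusted p = 0.125) did not pass.

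Several of these smaller calls depended on settings. CCND1 (-0.51, adjusted p = 0.042), which encodes cyclin D1, and MYC lost the call when certain single libraries were left out. For CCND1 these were Helicon4neg libraries 1 and 3 to 8 and Helicon4 100 mpk libraries 2 to 5, with an adjusted p of at most 0.19. For MYC they were Helicon4neg libraries 1, 3, 4, 7 and 8 and Helicon4 100 mpk libraries 2 to 5, with at most 0.111. RNF43 lost it without Helicon4neg library 4 (0.057) or without Helicon4 100 mpk library 2 (0.104), 3 (0.0563) or 4 (0.0911). Rescaled columns ended the calls of CCND1 (0.123), MYC (0.187) and RNF43 (0.208). ASCL2 (-0.45, adjusted p = 0.999), ZNRF3 (-0.82, 0.596), RNF43 (-0.36, 0.92), TCF7 (-0.88, 0.404), CCND1 (-0.63, 0.949) and MYC (-0.50, 0.834) were not called with the code block.

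**Figure D2:**
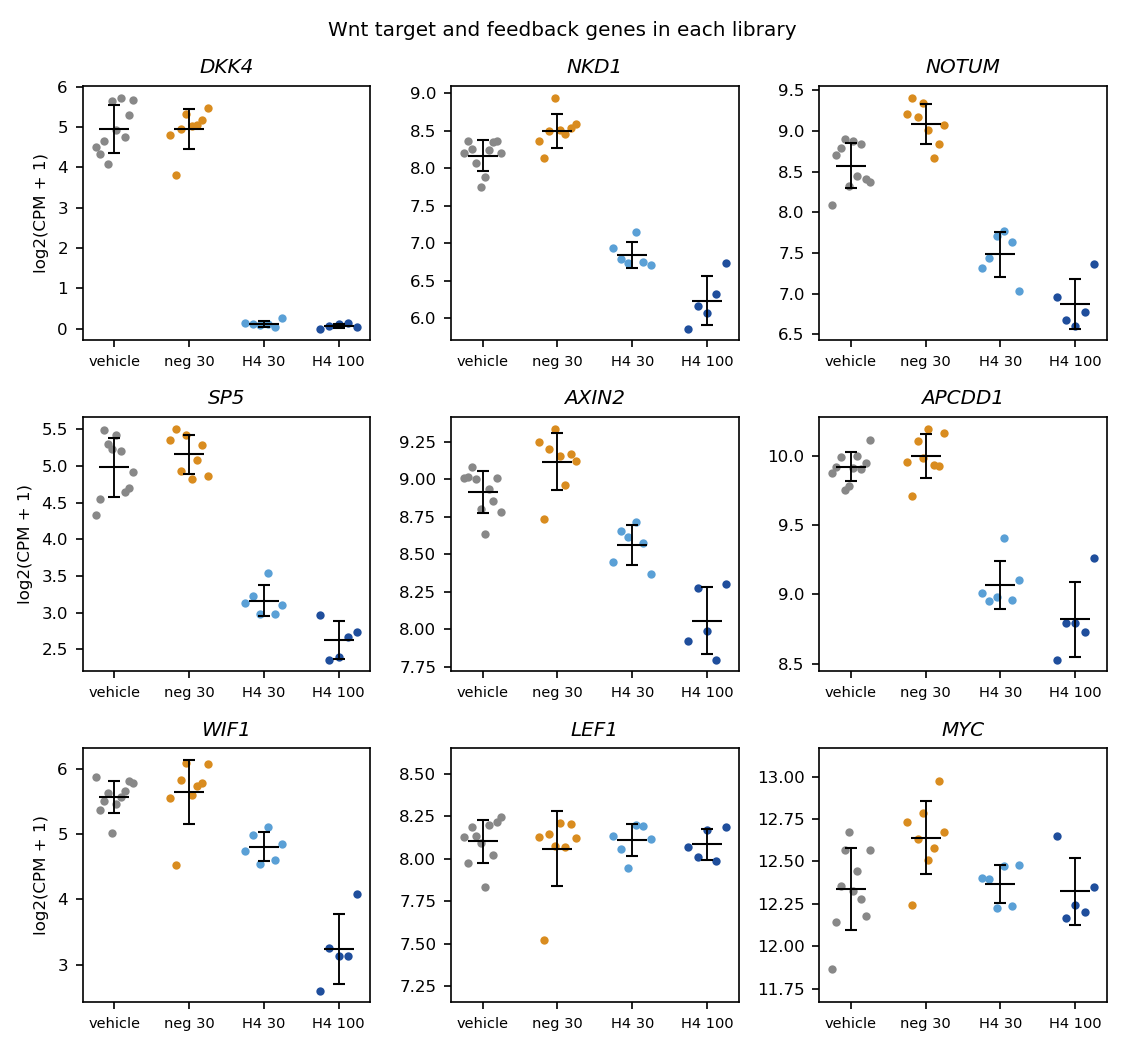
Level of 9 Wnt genes in each library as log2(CPM + 1), with an axis per gene that does not start at 0, for vehicle (10 libraries), Helicon4neg at 30 mpk (neg 30, 8), Helicon4 at 30 mpk (H4 30, 6) and at 100 mpk (H4 100, 5). Bars are the mean and SD, and the 2 groups with Helicon4 lie below the others for DKK4, NKD1, NOTUM and SP5 while LEF1 is level.

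Among secreted and surface Wnt antagonists, 11 of 15 measured genes were lower and 3 higher (median -0.80), against 17.7% and 17% of all genes. DKK1, which blocks the LRP co-receptors like DKK4, read 1.5, 2.33, 1.09, 2.81 and 1.74 CPM against 8.88 to 24.2 CPM (median 17.4), with no overlap (-2.65 ± 0.18, adjusted p = 2.11e-12). WIF1, a secreted protein that binds Wnt ligands, read 5.06, 8.59, 7.8, 7.8 and 15.9 CPM against 22.1 to 67.1 CPM (median 53.3), a log2 fold change of -2.41 ± 0.21 (adjusted p = 1.77e-10). WIF1 was lower at 100 than at 30 mpk, by -1.56 on the log2 scale (27.2 ± 4.3 CPM at 30 mpk, adjusted p = 5.41e-05), and DKK1 did not pass between the doses (-0.18, adjusted p = 0.705). APCDD1, a membrane inhibitor, was at 458 ± 92.4 against 1028 ± 110 CPM (-1.18, adjusted p = 1.54e-10), and SFRP5, a decoy for Wnt ligands, at 0.45 ± 0.312 against 3.38 ± 0.599 CPM (-1.61, adjusted p = 6.13e-09). The 3 that were higher, DKK2 (0.49), DKK3 (0.62) and SOSTDC1 (0.70), are antagonists too. In the fit with the block DKK1, WIF1 and APCDD1 kept their calls and SFRP5 did not (adjusted p = 0.0644). There 5 of 15 genes were lower and 0 higher, against 0.591% and 0.823% of all genes.

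The list of intracellular feedback regulators, which also holds the receptor gene TNFRSF19 and the growth factor gene FGF20, had 10 of 16 genes lower and 2 higher. Its median was -0.62, and over all genes 17.7% were lower and 17% higher. DACT1, a binding partner of Dishevelled, read 4.96, 4.68, 6.27, 9.93 and 6.35 CPM against 23 to 28.8 CPM (median 27.1), so that the highest Helicon4 library had less than any Helicon4neg library (-1.92 ± 0.13, adjusted p = 9.95e-13). NKD2, the paralog of NKD1, was at 40.1 ± 8.83 against 155 ± 22.4 CPM (-1.94, adjusted p = 1.23e-10). TNFRSF19, a receptor of the TNF family that marks stem cells, was at 17 ± 4.41 against 70.1 ± 15.2 CPM (-1.97, adjusted p = 6.52e-10). FGF20, a growth factor gene in the list as a Wnt target, had 32 reads over the 5 libraries against 1725 over the 8, which is 34.3-fold lower by summed reads (95% limits 24.2 to 50.3). NKD2 and TNFRSF19 were lower at 100 than at 30 mpk, by -0.99 (adjusted p = 9.04e-04) and -0.97 (0.00309). All 4 kept their calls with the code block.

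In the list of 25 Wnt target genes, 19 were lower and 3 higher, with a median of -0.67, against 17.7% and 17% of all genes. This list takes in the 13 core genes and shares others, such as DKK1 and FGF20, with the 2 lists above. The counts of the Wnt lists are therefore not independent. The 3 higher genes were EPHB3 (1.64), SOX9 (0.91) and SOX4 (0.77). EPHB3, a receptor for ephrin-B ligands that positions cells along the crypt, read 44.7, 42.7, 35.3, 34.1 and 45.4 CPM against 9.11 to 16.2 CPM (median 12.7), without overlap (adjusted p = 1.39e-10). Its level at 30 mpk was 40.3 ± 6.87 CPM, and its call held with the code block (2.31, adjusted p = 0.00121). SOX9, a crypt transcription factor, was at 10.7 ± 2.05 against 5.27 ± 1.18 CPM, and lost its call with the block (1.11, adjusted p = 0.139). The related receptor genes EPHB4 (-0.44, adjusted p = 9.32e-04) and EPHB2 (-0.24, 0.0346) were lower. EPHB2 was not called with rescaled columns (0.284), without Helicon4neg library 3, 4 or 5 or without Helicon4 100 mpk library 2 or 3 (adjusted p 0.0508 to 0.153). In the block fit 8 of the 25 targets were lower and 1 higher, against 0.591% and 0.823% of all genes.

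Among 20 genes for β-catenin, TCF and LEF factors and their coactivators, 3 were higher and 3 lower (median 0.11), no more than the 17% and 17.7% of all genes, so only the single genes are described. CTNNB1, which encodes β-catenin, read 338, 347, 323, 313 and 333 CPM against 223 to 259 CPM (median 248), a rise of 0.43 ± 0.07 without overlap (adjusted p = 8.99e-06). CTBP2, a corepressor, rose by 0.59 (adjusted p = 8.21e-05), and TBL1X, which links β-catenin to coregulators, by 0.37 (0.0179). SMARCA4 (-0.38, adjusted p = 0.00249), a chromatin remodeller, and CTNNBIP1 (-0.34, 0.00832), which binds β-catenin and blocks TCF, were lower. CTNNBIP1 was at 20.6 ± 1.68 CPM with Helicon4 at 100 mpk, near the 21.3 ± 2.62 CPM of vehicle. With Helicon4neg it was at 26.6 ± 4.18 CPM (0.30 over vehicle, adjusted p = 0.031).

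Of 31 ligands, receptors and destruction complex genes 7 were higher and 8 lower (median -0.02), shares near those of all genes. The ligand gene WNT5A read 49.1, 83.6, 72.9, 52.4 and 60.3 CPM against 13.9 to 36.4 CPM (median 32.1), a rise of 1.06 (adjusted p = 1.06e-05). FZD8, a Frizzled receptor, was lower by -1.20 (20.2 ± 3.89 against 47.3 ± 6.66 CPM, adjusted p = 7.82e-09), as were the Dishevelled genes DVL1 (-0.93) and DVL2 (-0.44) and the scaffold AXIN1 (-0.61). None of the genes of these 2 lists named here kept its call with the code block, where the adjusted p ran from 0.142 to 0.999.

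Intestinal stem cell markers included 10 lower and 3 higher genes of 15 (median -0.47), against 17.7% and 17% of all genes. Some of them, such as EPHB3 and SOX9, are also in the Wnt target list. RGMB, a co-receptor for bone morphogenetic proteins, read 27.5, 27.2, 24.7, 20.8 and 26.2 CPM against 40.3 to 63.8 CPM (median 45.2), a log2 fold change of -0.88 (adjusted p = 3.70e-08). Enterocyte markers had 2 of 8 higher and 2 lower, close to the shares over all genes for so short a list, so only single genes are described. FABP2, a fatty acid binding protein of absorptive cells, was at 9.33 ± 1.04 against 33.1 ± 8.44 CPM (-1.69, adjusted p = 5.10e-09), and KRT20, a keratin of differentiated epithelium, at 8.3 ± 1.77 against 3.33 ± 0.778 CPM (1.10, adjusted p = 1.56e-05). Of 3 secretory lineage genes measured, ATOH1 (0.57), the factor that specifies the lineage, was higher, and GFI1 (-0.35) and DEFA5 were lower. On adding the code block RGMB (-0.87, adjusted p = 0.218), FABP2 (-1.67, 0.131), ATOH1 (0.93, 0.238) and GFI1 (-0.60, 0.394) lost their calls, and the sign of KRT20 turned (-0.23, 0.999). CA2, a carbonic anhydrase and the other lower enterocyte marker, was at 2.32 ± 0.407 against 4.03 ± 0.292 CPM (-0.61, adjusted p = 3.49e-04) and kept its call with the block (-1.56, adjusted p = 0.00378).

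The largest rises and falls lay mostly outside the Wnt lists. DEFA5, an antimicrobial defensin of Paneth cells, read 1.12, 1.11, 0.854, 3.59 and 3.16 CPM against 42 to 163 CPM (median 76), a log2 fold change of -4.83 ± 0.27 (adjusted p = 2.33e-14). Its levels at 30 mpk lay between, at 5.33 ± 1.53 CPM, and the doses differed (-1.17, adjusted p = 0.0178). ZAP70, a tyrosine kinase known from T cell receptor signalling, read 2.66, 2.27, 1.68, 3.48 and 3.17 CPM against 62.3 to 112 CPM (median 76.6). This was the smallest adjusted p among the genes named here (-4.45 ± 0.13, adjusted p = 7.08e-21), with 6.43 ± 0.941 CPM at 30 mpk (100 against 30 mpk -1.04, adjusted p = 4.23e-05). ADRA2C, an adrenergic receptor, had 88 reads in the 5 libraries against 5598 in the 8, 40.5-fold lower by summed reads (95% limits 32.8 to 50.5), and SEMA5B, a semaphorin, 97 against 4249, 27.9-fold lower (22.8 to 34.4).

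SERPIND1, which encodes heparin cofactor, read 0.113 to 1 CPM against 9.19 to 12.5 CPM (-2.90 ± 0.13, adjusted p = 3.66e-16). HDC, the enzyme that makes histamine, read 125, 84, 97.7, 64.5 and 128 CPM against 314 to 755 CPM (median 602), a log2 fold change of -2.55 (adjusted p = 2.59e-13). HDC was also lower at 100 than at 30 mpk, by -1.45 (267 ± 30 CPM at 30 mpk, adjusted p = 8.14e-06). So was the potassium channel gene KCNJ6, by -1.76 (adjusted p = 3.72e-06), at 3.13 ± 1.62 CPM against 26.2 ± 4.31 CPM with Helicon4neg. POMC (-3.17), the precursor of several peptide hormones, C9orf84 (-2.86), DKK4 and DKK1 were also among the 12 largest falls, over genes with a mean of at least 5 CPM and no clone-style symbol. POMC lost its call with the code block (-2.61, adjusted p = 0.0675), and the other genes named here among these falls kept theirs.

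TAC3, the neurokinin B precursor, showed the largest rise among the same genes. It read 58.2, 59.6, 44.9, 21.9 and 24 CPM with Helicon4 at 100 mpk against 2.08 to 4.96 CPM (median 2.7) with Helicon4neg (3.27 ± 0.22, adjusted p = 1.04e-12). TAC3 was at 11.1 ± 4.4 CPM at 30 mpk, so the doses differed by 1.77 (adjusted p = 2.46e-05). BMF, a BH3-only protein that promotes apoptosis, read 46.1, 52.2, 40.9, 46.2 and 58.3 CPM against 6.59 to 9.58 CPM (median 8.96), a rise of 2.36 ± 0.11 (adjusted p = 7.75e-16). PADI2, a peptidylarginine deiminase, rose by 2.41 to 30.4 ± 7.88 CPM, and TMSB4X, an actin-binding thymosin, by 2.23 to 159 ± 53.9 CPM. TMSB4X was also higher at 100 than at 30 mpk, where it had 58.5 ± 13 CPM (1.39, adjusted p = 2.18e-04).

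TNMD (2.55), KNG1 (2.11), HRC (1.88), HIST1H2AC (1.81), IFIT1 (1.73), KCNMA1-AS1 (1.72), COL9A1 (1.71) and NXPH4 (1.70) made up the rest of the 12 largest rises. The groups did not overlap for any of the 12. These genes were picked by size in the same libraries, so the lack of overlap is no separate result. COL9A1, a collagen gene, read 12.7, 12, 8.33, 12.2 and 4.89 CPM against 1.45 to 2.85 CPM, and its level at 30 mpk, 3.36 ± 1.03 CPM, did not pass against Helicon4neg (0.40, adjusted p = 0.16). KNG1, which encodes kininogen, had 6.26 CPM in library 4 against 15.3 to 25.7 CPM in the other 4 of its group. Reads of KCNMA1-AS1 and of KCNMA1 on the other strand may not be told apart, since the counting setting is not given. In the block fit TNMD (1.73, adjusted p = 0.213), KNG1 (2.32, 0.0506) and KCNMA1-AS1 (1.31, 0.139) lost their calls and the other 9 kept theirs.

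Interferon-stimulated genes, which cells switch on through factors such as STAT2 and IRF9 after interferon or on sensing foreign nucleic acid, were higher as a group. Of 35 measured, 32 were higher and 1 lower, with a median log2 fold change of 0.89, against 17% and 17.7% of all genes. IFIT1, which binds foreign RNA, read 16.6, 36, 26.1, 15.3 and 31.8 CPM against 5.42 to 7.91 CPM (median 6.49), a rise of 1.73 ± 0.17 (adjusted p = 2.80e-09). IFI44L read 2.82, 11.9, 4.83, 2.12 and 5.73 CPM against 0.0956 to 0.562 CPM, and by summed reads was 21-fold higher (1201 reads against 90, 95% limits 16.9 to 26.3). In both genes libraries 1 and 4 were the lowest of the 5 and still above every Helicon4neg library.

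IFIT3, a partner of IFIT1, was at 8 ± 3.44 against 1.33 ± 0.486 CPM (1.89, adjusted p = 7.53e-08) and HERC6, a ubiquitin ligase of the family, at 23.5 ± 6.32 against 8.63 ± 0.747 CPM (1.31, adjusted p = 3.08e-09). STAT2 and IRF9, which drive the response, were higher by 0.76 (adjusted p = 3.78e-05) and 0.61 (0.0444). EPSTI1 was the lower gene (-0.95, adjusted p = 1.43e-06), and IFITM3 (0.26, adjusted p = 0.228) and USP18 (0.23, 0.0535) did not pass. At 30 mpk 26 of the 35 were higher than with Helicon4neg and 1 lower (median 0.68), against 7.78% and 7.31% of all genes. Between the doses the median was 0.26. IFIT1 (0.61, adjusted p = 0.0532) and IFI44L (0.78, 0.0975) did not pass between the doses. Helicon4neg lay below vehicle for 2 of them, IFIT1 (-0.47, adjusted p = 0.0483) and SAMD9 (-0.59, 0.034), and above it for none (median -0.19). Over all genes 2.62% were lower and 2.21% higher there. On adding the code block 16 of 35 were higher and 0 lower (median 1.71), against 0.823% and 0.591% of all genes. IFIT1 (2.52, adjusted p = 0.00197), IFI44L (4.01, 8.58e-04), IFIT3 (2.88, 0.00423) and HERC6 (1.77, 0.00423) kept their calls. Without Helicon4neg library 2 the counts stayed at 32 and 1. MHC class I antigen presentation genes, many of which also respond to interferon, were 1 higher and 2 lower of 19, below the shares over all genes. Among them B2M was at 0.37 (adjusted p = 0.0132, and 0.0636 without Helicon4 100 mpk library 2).

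**Figure D3:**
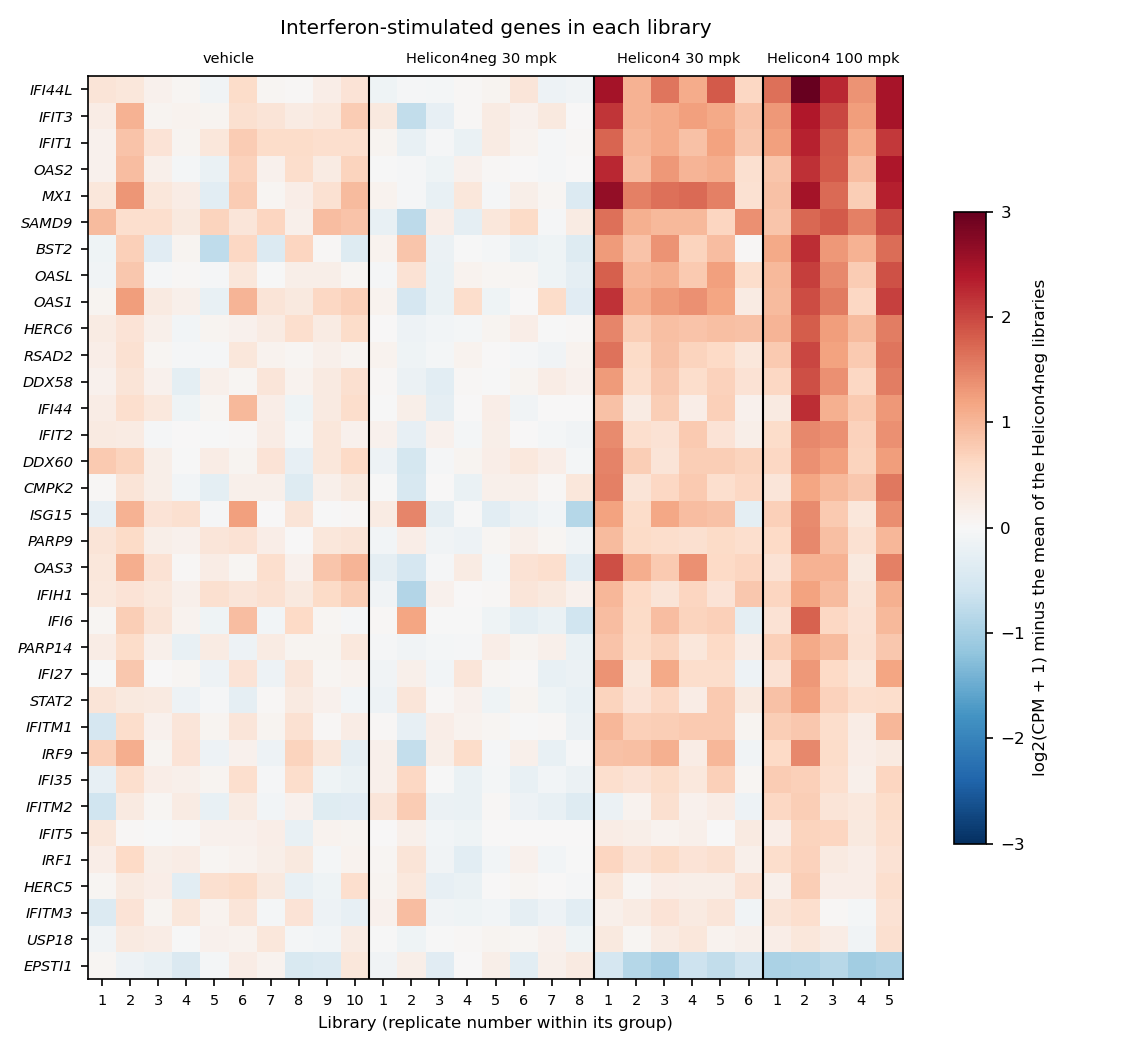
Interferon-stimulated genes, 34 of the 35 measured (rows, ordered by their mean with Helicon4 at 100 mpk) in each of the 29 libraries (columns by group and replicate number), as log2(CPM + 1) minus the gene's mean over the 8 Helicon4neg libraries, with colors ending at 3 above and below. Red stands for higher levels, which fill both Helicon4 groups with differences between libraries of a group, and EPSTI1 in the last row is blue there.

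The interferon-stimulated response element was searched on both strands as GAAA, any 2 bases and GAAA again, in the RefSeq promoter windows described above. It was present in 19 of the 28 windows found for these 35 genes (67.9%), against 3.57% of all 35116 windows and 2.85% of the 10123 windows of tested genes. Among the 26 windows of genes called higher 17 held it, and HERC6, RSAD2 and OAS1 were among the higher genes whose window did not. The stretches with matches before the start are shown for 4 genes to let the element be read directly, with matches in capitals (on the reverse strand as TTTC, any 2 bases and TTTC). Coordinates are IFIT1 chr10:89392483-89392549 (plus strand), IFIT3 chr10:89327817-89327904 (plus), IFI44L chr1:78620260-78620404 (plus) and IFI6 chr1:27672256-27672372 (minus).
IFIT1: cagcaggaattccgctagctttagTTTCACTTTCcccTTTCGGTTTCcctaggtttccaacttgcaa
IFIT3: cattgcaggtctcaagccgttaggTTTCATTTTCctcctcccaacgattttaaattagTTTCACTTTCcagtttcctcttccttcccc
IFI44L: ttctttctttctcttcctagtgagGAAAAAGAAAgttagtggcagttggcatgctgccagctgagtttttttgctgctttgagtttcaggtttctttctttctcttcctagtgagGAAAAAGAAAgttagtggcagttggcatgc
IFI6: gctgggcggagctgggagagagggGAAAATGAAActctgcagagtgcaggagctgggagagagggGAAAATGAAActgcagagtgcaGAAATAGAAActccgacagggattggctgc
IFI6, whose window holds 3 matches, was at 68.9 ± 31.8 CPM against 37.9 ± 18.3 CPM (0.85, adjusted p = 0.00875).

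Lists of growth and protein synthesis genes had more lower than higher calls. Of 43 ribosome biogenesis and MYC target genes 27 were lower and 0 higher (median -0.39), against 17.7% lower over all genes. MYBBP1A, a nucleolar regulator of ribosomal RNA synthesis, read 104, 60.8, 79.6, 69.4 and 96.1 CPM against 136 to 184 CPM (median 164). This was a fall of 1.02 on the log2 scale (adjusted p = 5.74e-08). MYBBP1A was at 126 ± 18.9 CPM in vehicle, and Helicon4neg stood above vehicle (0.39, adjusted p = 0.0165). TERT, the catalytic subunit of telomerase, fell by 1.01 (3.94 ± 0.926 against 9.02 ± 2.12 CPM) and the nucleolar protein NOLC1 by 0.64. At 30 mpk 12 of the 43 were lower and 0 higher against Helicon4neg, where 7.31% and 7.78% of all genes were. MYBBP1A (-0.53, adjusted p = 0.0129) and TERT (-0.77, 0.00173) were lower at 100 than at 30 mpk. Of 20 aminoacyl-tRNA synthetase genes 9 were lower and 0 higher, led by VARS (-0.65, adjusted p = 4.82e-05). Nucleotide and one-carbon synthesis had 10 of 30 lower and 3 higher, with CAD, which starts pyrimidine synthesis, at -0.78 (adjusted p = 6.27e-06).

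DNA replication genes were lower in 14 of 35 and higher in 0 (median -0.20), against 17.7% and 17% of all genes. CDT1, which loads the MCM helicase onto origins, read 57.5, 36.6, 41.1, 46.5 and 67.6 CPM against 91.5 to 141 CPM (median 110), a fall of 1.13 (adjusted p = 1.08e-07). Mitosis and spindle genes had 4 of 36 lower and 2 higher (median -0.03), below the shares over all genes. A difference between the 2 lists was not tested. E2F2 (-0.67, adjusted p = 9.85e-06) and CCND2 (-0.81, 1.54e-04), cell cycle genes in a list with 8 of 22 lower and 0 higher, were lower, and so was the cell cycle inhibitor CDKN1A (-0.87, 3.15e-05). None of the 9 growth and cell cycle genes from MYBBP1A to CDKN1A kept its call with the code block (adjusted p 0.0664 to 0.931), where limma called 0 of 43 ribosome biogenesis and 0 of 35 replication genes. In that fit the list medians were -0.45 and -0.56, and 0.591% of all genes were called lower. At an unadjusted p under 0.05 it had 11 and 14 lower, and the share of all genes there was not counted. Without the block edgeR called 28 and 14 lower, and 2444 of all 13373 genes. Rescaled columns left 11 of the 35 replication genes lower.

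Amino acid response genes, which the factor ATF4 switches on when amino acids are short, were lower in 17 of 26 and higher in 2 (median -0.54). Over all genes 17.7% were lower and 17% higher. SLC1A5, a glutamine transporter, read 124, 88.5, 89.2, 85.3 and 122 CPM against 248 to 502 CPM (median 333), a fall of 1.74 ± 0.14 without overlap (adjusted p = 7.13e-11). SLC7A5 and SLC3A2, the chains of a transporter for large amino acids, fell by 0.85 (adjusted p = 3.97e-06) and 0.83 (8.27e-08), and CTH, which makes cysteine, by 0.87 (2.66e-07). Endoplasmic reticulum chaperones and unfolded protein response genes were lower in 11 of 22 and higher in 0 (median -0.34). With rescaled columns 8 of the 22 were lower. ERN1, a sensor of unfolded proteins, read 24.3 to 26.8 CPM against 49.1 to 57.8 CPM, a fall of 1.01 ± 0.08 (adjusted p = 1.47e-11), and HSPA5, the main chaperone, read 710, 798, 644, 764 and 770 CPM against 1002 to 1482 CPM (-0.70, adjusted p = 2.66e-07). HSPA5 was also higher with Helicon4neg than in vehicle (1207 ± 161 against 911 ± 81.9 CPM, 0.40, adjusted p = 0.00148). So was ERN1 (44.7 ± 4.94 CPM in vehicle, 0.24, adjusted p = 0.026). In all 4 of the 22 genes were higher there, against 2.21% of all genes. With the code block, against 0.591% of all genes, 2 of the 26 amino acid response and 1 of the 22 endoplasmic reticulum genes stayed lower. These were SLC1A5, CTH and ERN1, while SLC7A5 (adjusted p = 0.235), SLC3A2 (0.0567) and HSPA5 (0.174) did not.

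Cholesterol and fatty acid synthesis had 12 of 29 genes lower and 1 higher (median -0.32), and 8 lower and 1 higher with rescaled columns. FASN, the fatty acid synthase, was at 295 ± 86.6 against 585 ± 110 CPM (-1.02, adjusted p = 3.91e-05). For FASN 30 mpk did not pass against Helicon4neg (-0.29, adjusted p = 0.263) and 100 mpk was lower than 30 mpk (-0.73, 0.0233). ACSS2 (-0.90), DHCR7 (-0.78) and SREBF2 (-0.59) were lower as well, and none of these 4 calls held with the code block (adjusted p 0.525 to 0.835). Glycolysis and hypoxia genes had 6 of 29 lower, near the 17.7% of all genes, and 2, EGLN3 (0.93) and NDRG1 (1.11), higher, below the 17% of all genes. Targets of p53 had 5 of 20 higher and 7 lower. The code block left 1 of the 20 higher, against 0.823% of all genes. The BCL2 family had 4 of 16 higher, led by BMF, and 3 lower, the BH3-only genes HRK (-0.70), BBC3 (-0.68) and BID (-0.47), against 17% and 17.7% of all genes.

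**Figure D4:**
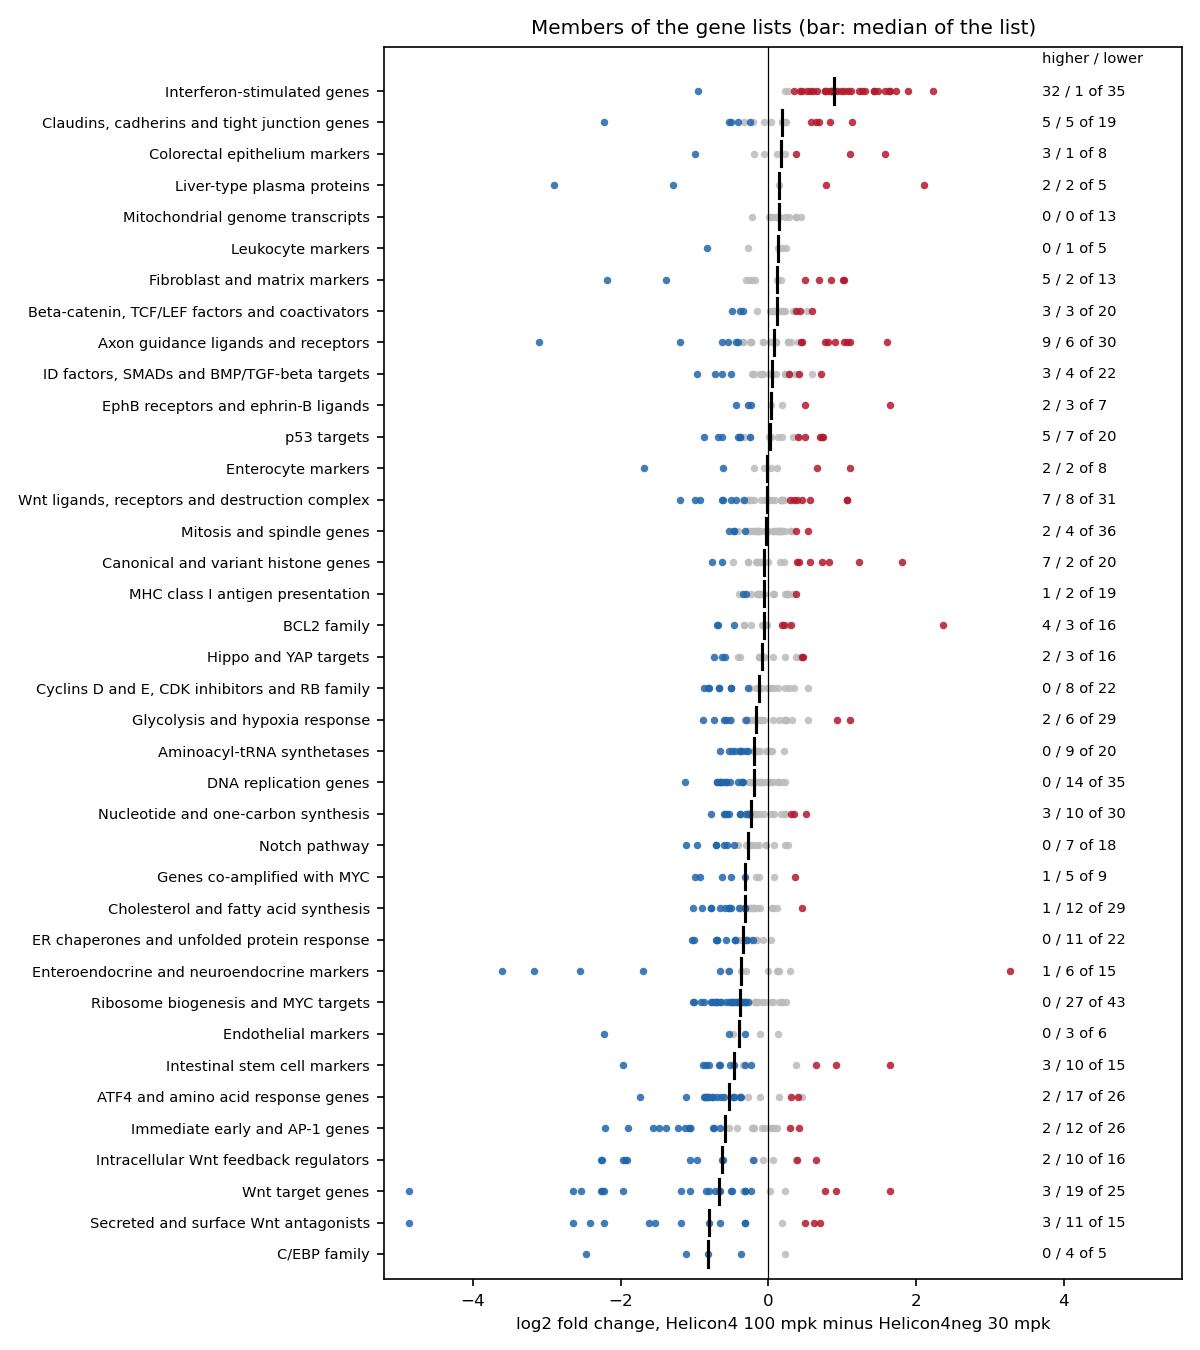
Log2 fold change (horizontal axis, Helicon4 at 100 mpk minus Helicon4neg at 30 mpk) of each measured member of the gene lists with at least 5 measured genes. The list of 13 core Wnt genes is left out. Each row is a list and each point a gene, red where called higher, blue where called lower and grey otherwise. Black bars are list medians, which run from 0.89 for interferon-stimulated genes to -0.82 for the C/EBP family, and the counts called stand at the right.

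Some gene groups also differed between Helicon4neg and vehicle. Immediate early and AP-1 genes, which respond within minutes to growth factors and stress, were lower with Helicon4 at 100 mpk than with Helicon4neg in 12 of 26 and higher in 2 (median -0.59), against 17.7% lower over all genes. With Helicon4neg against vehicle 6 of the 26 were higher, with a median of 0.25, against 2.21% of all genes. The code block left 2 of the 26 lower with Helicon4 at 100 mpk, against 0.591% of all genes. FOS read 2.12, 1.13, 3.55, 5.22 and 6.1 CPM with Helicon4 at 100 mpk, 2.81 to 45.6 CPM (median 22.8) with Helicon4neg and 2.5 to 16.5 CPM (median 4.67) in vehicle. Its Helicon4neg level thus stood above both other groups, by 1.60 over vehicle (adjusted p = 0.00644) and with a log2 fold change of -2.21 for Helicon4 (1.53e-04). JUN had medians of 58.8, 206 and 86.3 CPM in the same order (0.92 over vehicle, adjusted p = 0.029, and -1.56, 1.69e-04). FOS and JUN in Helicon4neg library 2, at 2.81 and 45.4 CPM, were the lowest of that group.

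SPRY2, a feedback inhibitor of growth factor signalling, read 2.03, 1.73, 2.43, 4.14 and 3.22 CPM against 6.73 to 17.1 CPM (median 13.1) with Helicon4neg and 13 ± 2.39 CPM in vehicle (-1.90 ± 0.16, adjusted p = 1.86e-10). ETV5, a transcription factor of the same pathway, was at 194 ± 37.9 against 538 ± 63.4 CPM (-1.48, adjusted p = 3.24e-10) and 436 ± 82.2 CPM in vehicle. KLF4, a factor of differentiated epithelium, was at 0.294 ± 0.13 against 2.53 ± 0.981 CPM (-1.39, adjusted p = 2.22e-07) and 1.05 ± 0.419 CPM in vehicle (Helicon4neg over vehicle 0.75, adjusted p = 0.00201). SPRY2 and ETV5 kept their calls with the code block, while KLF4 (-1.53, adjusted p = 0.182), FOS (-3.34, 0.223) and JUN (-2.22, 0.359) did not. In the C/EBP family 4 of 5 genes were lower, against 17.7% of all genes. CEBPD read 0.828 to 1.65 CPM against 8.08 to 17.4 CPM (-2.47 ± 0.21, adjusted p = 1.16e-10), a call that held with the block (-2.06, 0.0349).

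The 8 genes with the smallest adjusted p for Helicon4neg against vehicle were all higher with Helicon4neg, and the same Helicon4neg libraries enter the comparison with Helicon4. Of them CASC11 did not pass for Helicon4 at 100 mpk (-0.17, adjusted p = 0.113). TEF (-0.25, adjusted p = 0.0436) lost its call with rescaled columns (0.233) and without any of Helicon4neg libraries 1 to 5, 7 and 8 or Helicon4 100 mpk libraries 2 to 5 (0.0511 to 0.0967). SAT1, which starts polyamine breakdown, read 95, 115, 88.1, 114 and 79.5 CPM with Helicon4 at 100 mpk and 247 to 395 CPM (median 331) with Helicon4neg, without overlap (-1.73 ± 0.13, adjusted p = 2.26e-11). Vehicle lay between at 187 ± 37 CPM, with Helicon4neg higher by 0.82 (adjusted p = 6.26e-05). RUNX1, a transcription factor, was ordered in the same way, at 11.8 ± 2.23 CPM, 46.1 ± 11.1 CPM and 23.8 ± 4.01 CPM in vehicle (-1.86 against Helicon4neg, adjusted p = 2.75e-11, and 0.91 for Helicon4neg over vehicle, 5.79e-05). TH, which makes the precursor of dopamine, was instead at a level near vehicle with Helicon4, 7.11 ± 3.35 against 5.4 ± 2.45 CPM, and at 25.8 ± 11.5 CPM with Helicon4neg (-1.70, adjusted p = 2.03e-04, and 2.04 over vehicle, 6.26e-05). RBM3, a cold-inducible RNA-binding protein, was at 436 ± 29.2, 619 ± 64.5 and 399 ± 47.2 CPM. SAT1 and RUNX1 kept their calls with the code block, and TH (-0.78, adjusted p = 0.996) and RBM3 (-0.50, 0.647) did not.

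Genes of the MYC amplicon were also higher with Helicon4neg than in vehicle in 5 of 9, with a median of 0.37, against 2.21% of all genes. Against Helicon4neg, Helicon4 at 100 mpk had 5 of 9 lower and 1 higher (median -0.32), against 17.7% and 17% of all genes. With the code block limma called 0 of the 9, against 0.591% lower and 0.823% higher over all genes. At an unadjusted p under 0.05 that fit had 2 lower, and the share of all genes there was not counted. Without the block edgeR called 5 lower and 1 higher, against 2444 and 2314 of all 13373 genes. PVT1, a long noncoding RNA next to MYC, was at 677 ± 44.2 CPM with Helicon4 at 100 mpk, 970 ± 140 CPM with Helicon4neg and 603 ± 74 CPM in vehicle (-0.51, adjusted p = 3.67e-04, and 0.68, 5.11e-05). CDX2, an intestinal transcription factor on the same list, read 2548, 1602, 1816, 2006 and 2461 CPM against 3382 to 4783 CPM (median 4226), without overlap (-0.99 ± 0.13, adjusted p = 7.13e-07). Its mean vehicle level was 3135 CPM (Helicon4neg over vehicle 0.40, adjusted p = 0.0257). Neither PVT1 (-0.46, adjusted p = 0.703) nor CDX2 (-0.90, 0.271) was called with the code block.

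**Figure D5:**
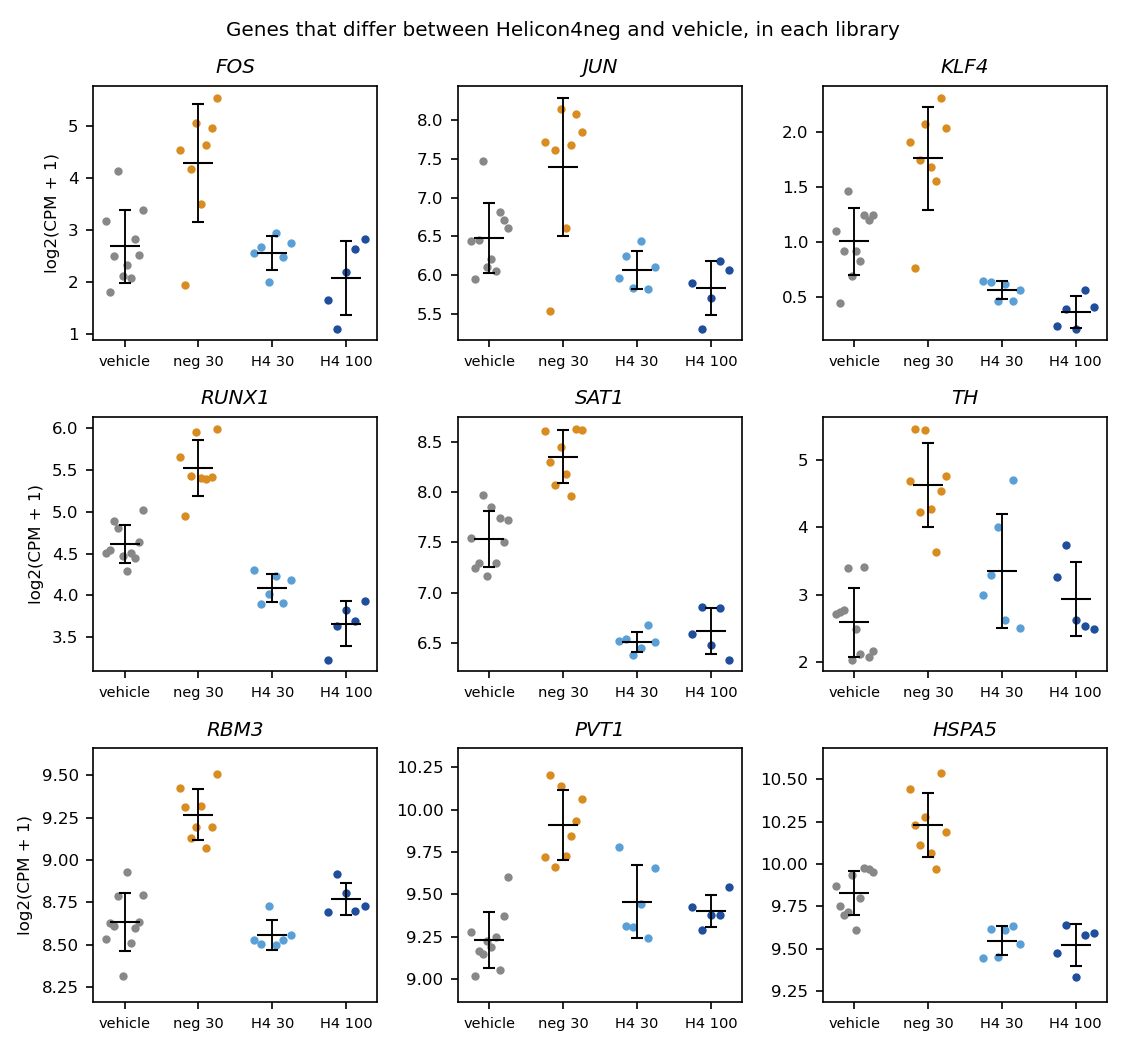
Level of 9 genes that passed the test between Helicon4neg and vehicle, in each library as log2(CPM + 1), with an axis per gene that does not start at 0, for vehicle (10 libraries), Helicon4neg at 30 mpk (neg 30, 8), Helicon4 at 30 mpk (H4 30, 6) and at 100 mpk (H4 100, 5), with mean and SD as bars. Helicon4neg is the highest group in each panel, and both groups with Helicon4 lie below vehicle on average except for TH and PVT1, where both lie above it, and RBM3, where 1 lies on each side.

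Other lists held single genes with clear differences, and their counts stand against 17% higher and 17.7% lower over all genes. Axon guidance genes were 9 of 30 higher and 6 lower, the lower share near that of all genes. Among them SEMA3A (1.60, adjusted p = 1.30e-08) and the netrin receptor UNC5B (1.11, 5.25e-07) rose while SEMA5B fell. Enteroendocrine and neuroendocrine markers were 6 of 15 lower and 1, TAC3, higher. Notch pathway genes were 7 of 18 lower and 0 higher, led by the ligand JAG2 (-1.11, adjusted p = 2.99e-07) and the target HEY1 (-0.71, 1.44e-05). Histone genes were 7 of 20 higher and 2 lower, with HIST1H2BD at 7.11 ± 0.807 against 2.49 ± 0.415 CPM (1.22 ± 0.10, adjusted p = 4.04e-11). Transcripts of canonical histone genes mostly lack a polyA tail and are near-identical in sequence, so their polyA-selected levels are uncertain. Of the genes named in this paragraph other than TAC3 and SEMA5B, HIST1H2BD alone kept its call with the code block (1.21, adjusted p = 0.0316).

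Markers of the tumor and of other cells were compared last, and their counts stand against 17% higher and 17.7% lower over all genes. Of 8 measured colorectal epithelium markers 3 were higher and 1, CDX2, lower. GPA33, a surface antigen of intestinal epithelium, read 42.3, 43.4, 45.8, 36.1 and 51.1 CPM against 11.7 to 16.3 CPM (median 13.9), a rise of 1.58 ± 0.10 that held with the code block (1.74, adjusted p = 0.00154). EPCAM, KRT8 and KRT18 were detected in both groups. CDX1, VIL1, CEACAM5 and LGALS4 had no values among the 13492 genes and were not analysed here. Of 13 fibroblast and matrix markers 5 were higher and 2 lower, the lower share near that of all genes. BGN, a matrix proteoglycan, was at 11.5 ± 5.18 against 53.1 ± 5.92 CPM (-2.18, adjusted p = 5.41e-11) and MMP2, a matrix protease, at 71.6 ± 16.5 against 186 ± 18.9 CPM (-1.38, 2.08e-10), while COL1A1 (1.01, 1.54e-06) and PDGFRA (1.02, 3.83e-09) rose. BGN, MMP2 and PDGFRA kept their calls with the block and COL1A1 did not (1.48, adjusted p = 0.0555). The list's mean log2 level was close in the groups (3.82 ± 0.10 against 3.83 ± 0.12, exact permutation test, two-sided, p = 0.83).

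Endothelial markers were lower in 3 of 6 and higher in 0, against 17.7% and 17% of all genes. Their mean log2 level was 2.87 ± 0.10 (SD, n = 5) against 3.46 ± 0.15 (SD, n = 8), a difference of -0.59 (exact permutation test, two-sided, p = 7.77e-04, the smallest that 1287 divisions allow, adjusted p = 0.0035 over 9 library measures). Their summed level was 109 to 157 CPM against 174 to 231 CPM, without overlap. Most of this sum was ERG (mean 109 CPM over the 13 libraries), and FLT1, ENG and ESAM were at 0.94 to 2.09 CPM. CLDN5, a claudin of endothelial junctions, was at 2.99 ± 0.738 against 19 ± 10.7 CPM (-2.22, adjusted p = 8.27e-08), and the mean without CLDN5 differed by -0.26 (same exact p). PECAM1, CDH5, VWF and KDR, which define endothelial cells, had no values among the 13492 genes and were not analysed here. In bulk tumors fewer cells of a type and less RNA per cell cannot be told apart. CLDN5 (-1.41, adjusted p = 0.484) and ERG (-0.73, 0.456) lost their calls with the code block. Of 5 leukocyte markers 1, CTSS (-0.83), was lower, near the share of all genes. Their summed level was 33 to 44.1 CPM against 30.6 to 48.2 CPM. CD68, CD14 and LYZ had no values among the 13492 genes and were not analysed here. The part of endothelial or other host cells in the differences above was not tested. Depth, mitochondrial share (8.19 ± 1.64% against 6.68 ± 1.29%, exact permutation p = 0.0948, two-sided), ribosomal protein share and length slope gave exact p values of 0.0948 or more.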

How the data were processed

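RNA-seq was made from COLO320DM xenograft tumors, polyA-selected, 29 libraries in all. Per the submitters' processing notes, Trimmomatic 0.39, STAR 2.7.7a, featureCounts (Subread 2.4.2) and edgeR 4.0.2 were used with GRCh38, with no roles or settings given. The deposited table holds the authors' scaled CPM, a signal per gene that the authors divided by library size factors. Whole reads were recovered from 100% of values within 0.05 reads, and gave the depths stated. No mouse genome is named, so host reads may count under human genes.

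A gene was kept if 5 or more libraries reached 1 CPM, which left 13373 genes. They were tested with limma 3.58.1 (R 4.3.3, trend and robust) on log2(CPM + 1), with all 4 groups in 1 fit and Benjamini-Hochberg adjustment. Fold changes on this scale understate low genes. edgeR 4.0.16 and DESeq2 1.42.0 were run on the recovered reads as alternatives, since the table holds no raw counts. The scripts were tested on simulated data.

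Members and lists were chosen with earlier results of these data known. Named were 13 core Wnt genes, the 12 largest rises and falls at a mean of at least 5 CPM, up to 4 genes per list by adjusted p (6 for Wnt lists), the 8 largest changes called both in this comparison and between the Helicon4 doses, and 8 by adjusted p for Helicon4neg against vehicle. Named outside that rule, after their values were seen, were FOS, JUN, DKK2, DKK3, SOSTDC1, SOX4, STAT2, IRF9, EPSTI1, IFITM3, USP18, SAMD9 and IFI6, and any other gene without values by library. RefSeq promoters (GRCh38.p14) and GENCODE 29 gene positions were used. Some genes that these rules and lists take in are not reported here by name.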

Additional observations from a re-analysis of the deposited data

Results flagged for a closer look

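A library far from the rest of its group was found in 12 of 76 groups of values examined, where chance gives about 1 in 20. Helicon4neg library 2 was that library in 8 of them. It had the lowest slope on gene length, -0.321 (others -0.0452 to 0.0871), and the highest levels of ASCL2 (138 CPM, others 35.7 to 59.6), TMSB4X (72.5 CPM, others 22.8 to 36.4) and DEFA5 (163 CPM, others 42 to 86.2). In the same library ZNRF3 (63.1 CPM, others 105 to 139), LEF1 (183 CPM, others 268 to 296), CCND1 (9.02 CPM, others 12.5 to 14.8) and HDC (314 CPM, others 555 to 755) were lowest.

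ZAP70 was highest in Helicon4neg library 4, at 112 CPM (others 62.3 to 85.1). With Helicon4 at 100 mpk, HIST1H2AC was highest in library 2 at 26.7 CPM (others 14.1 to 17.5). Library 5 of that group, the one with the code SH7084, was highest for SEMA5B at 0.852 CPM (others 0.182 to 0.337) and KCNJ6 at 5.96 CPM (others 1.96 to 2.81).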

How the results depend on the processing

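Counts of 2280 higher and 2369 lower genes stayed within 1.5 times in 12 other planned or added settings, while 110 and 79 were called with the title code block and 678 and 917 at 1.5-fold or more. Leaving out single libraries gave 1811 to 2517 higher and 1905 to 2701 lower genes. Of 168 named calls, 155 were not lost in any of the 25 settings apart from the title code block in which they were tested. A filter at 5 CPM tested only 160 of the 181 named genes. The title code block kept 49 calls, lost 117 and turned 2 (KRT20 -0.23, TEF 0.12). EGFL7 (0.11) also changed sign in the fit with the title code block. LEF1, not called, changed sign with the title code block (-0.06), library weights (-0.05) and a length slope covariate added after seeing the data (-0.04). Without single libraries LEF1 ran from -0.05 to 0.05 and KRT10 from -0.04 to 0.14. The cause was not tested. Shared replicate numbers gave residual correlations of 0.08 to 0.32, 1 of 5 under 0.1, so the numbers were not taken to pair libraries. With the replicate block 2126 genes were higher and 2342 lower, and CCND1, MYC and EPHB2 lost their calls. Levels under 1 CPM rest on few reads, as for DKK4.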
